A study of Mus musculus with 7 samples.

Results

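The collagen gene family was followed in myocardial RNA of 7 wild-type male C57BL/6J mice that entered the study at 8 weeks of age. In 3 of them (MI mice) the left coronary artery had been ligated 4 days before the tissue was taken, and the other 4 (sham-operated mice) went through the same surgery without ligation. The members are 43 mouse genes of the family, taken from a list of symbols that need not be complete, each of which encodes 1 collagen chain, and all 43 were found among the 56980 genes of the expression table. Values are FPKM, the fragments counted on a gene relative to its length and to the sequenced fragments of the library, and each mouse gave 1 library. The samples were bulk tissue, so more cells of a type and more RNA per cell cannot be told apart in any value given here.

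Collagens, most of them secreted, are proteins in which 3 chains wind into a triple helix. Every turn of the helix needs a glycine at its core, so the helical part of a chain is a repeat of glycine followed by a pair of other residues, often proline and hydroxyproline. The fibrillar chains (types I, II, III, V, XI, XXIV and XXVII) form the fibres that carry tension. Type IV chains form the sheet of basement membranes around capillaries and muscle cells, type VI chains form beaded filaments beside it, and FACIT chains (types IX, XII, XIV, XVI, XIX, XX and XXII) sit on the surface of fibrils. In the heart, interstitial fibroblasts are the main source of fibrillar collagen, and fibrillar collagen is the main material of the scar that replaces dead muscle after infarction.

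The coding sequence of these genes shows the repeat directly. Many of their coding exons are exactly 54 bases long, and where such an exon starts with a whole triplet inside the repeat it encodes 6 triplets, each opened by a glycine codon (GGN). One exon of this form is shown for each of the 5 fibrillar genes that were highest in the MI mice, always the first that starts with a whole triplet inside the longest unbroken run, with the glycine codon that opens each triplet in capitals. The sequences are given 5′ to 3′ on the coding strand of GRCm38, in the order Col1a1 (chr11:94939904-94939957, plus strand, coding exon 8), Col1a2 (chr6:4515481-4515534, plus strand, coding exon 8), Col3a1 (chr1:45325360-45325413, plus strand, coding exon 6), Col5a1 (chr2:27965251-27965304, plus strand, coding exon 15) and Col5a2 (chr1:45422386-45422439, minus strand, coding exon 10).
Col1a1: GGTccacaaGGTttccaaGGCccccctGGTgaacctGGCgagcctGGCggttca
Col1a2: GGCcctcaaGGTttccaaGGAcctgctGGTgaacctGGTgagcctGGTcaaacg
Col3a1: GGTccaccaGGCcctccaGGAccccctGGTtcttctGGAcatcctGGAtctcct
Col5a1: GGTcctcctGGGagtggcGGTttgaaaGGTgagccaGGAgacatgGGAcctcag
Col5a2: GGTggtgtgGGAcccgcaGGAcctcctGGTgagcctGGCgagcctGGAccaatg

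The 11 fibrillar genes had 21 to 33 coding exons of 54 bases, counted by length alone, in their principal transcript and an unbroken run of 216 to 344 triplets. The 6 type IV genes had 1 to 3 exons of 54 bases and runs of 39 to 66 triplets, since their helix is interrupted many times. The short-chain genes Col8a1, Col8a2 and Col10a1, whose products form open networks, had no exon of this length among their 2 coding exons, and their longest runs were 60 to 61 triplets. These features were read from the annotation and use no value measured in the mice.

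**Figure D1:**
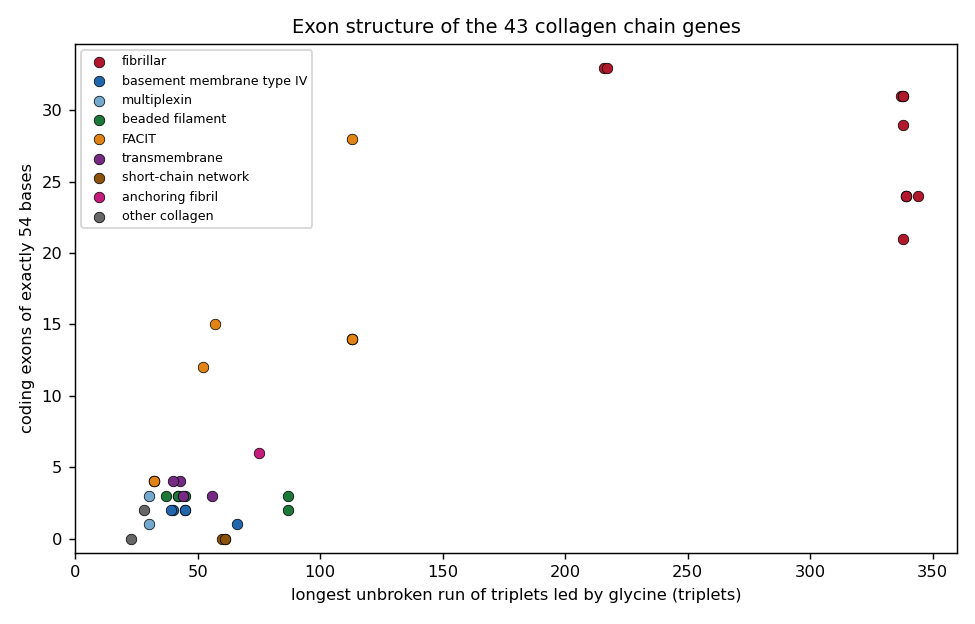
Number of coding exons of exactly 54 bases (vertical axis) against the longest unbroken run of glycine-led triplets (horizontal axis, in triplets) in the principal transcript of each of the 43 genes, 1 point a gene, coloured by class. The 11 fibrillar genes stand apart at 216 triplets or more, and every other gene is at 113 or fewer.

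Depth was 19977715 to 23610869 fragments per mouse, and 10 of 10 cardiomyocyte markers passed the filter on low values given further on. MI replicate 2 resembled the sham-operated mice across the genes tested (Pearson's r across genes 0.984 to 0.987, against 0.989 to 0.992 among the sham-operated mice), whereas MI replicates 1 and 3 did not (0.878 to 0.881 and 0.903 to 0.906). Counts of members called are therefore given with all 7 mice and without that mouse. MI replicate 2 was placed in the MI group by its label, and neither that label nor the tissue piece sampled could be checked. It did stand outside the sham range in some values given further on, such as the fibrillar share of collagen FPKM. Every MI mean and fold change includes this mouse unless stated otherwise. Mitochondrial genes, with M21 gene lengths, took 26.5% to 27.4% of the fragments in the sham-operated mice and 13.6%, 28.2% and 14.9% in MI replicates 1 to 3, and FPKM summed over all genes to 463838 to 476593 against 378221, 475030 and 386335. The same libraries, MI replicates 1 and 3, thus stood apart in these measures and in the collagen levels given further on, and with mitochondrial genes left out 18 of the 19 members that passed the filter kept the direction of their difference, the exception being Col6a6. On the log2 scale the median gene differed by 0.21 towards the MI mice. The labels set the mice apart by group and replicate number only. The p-values weigh the difference between the groups against the spread between these animals, to which MI replicate 2 adds in the MI group.

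In the uninjured heart the family was led by type IV. Col4a2 had a mean FPKM of 75.2 ± 11.4 (SD, n = 4) in the sham-operated mice and its partner Col4a1 57.3 ± 10.5 (SD, n = 4), and their ranges overlapped. Col3a1 at 30.0 ± 4.36 and Col6a1 at 29.2 ± 2.22 came next and overlapped each other, but lay below Col4a1 in every sham-operated mouse. Col1a1 at 19.5 ± 2.54, Col15a1 at 15.5 ± 1.86 and Col6a2 at 15.5 ± 0.757 followed, each overlapping its neighbour in this order. Of the 43 members, 19 had a mean FPKM of at least 1 in the sham-operated mice, and Col9a1 and Col10a1 had no fragment in any of them.

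The order of levels rests partly on gene length. Per base of the principal transcript in place of the length behind the FPKM, Col4a1 (87.5, in the unit of FPKM) and Col4a2 (80.1) exchanged places at the top, Col3a1 (57.9) kept the third place, and Col1a2 moved from the eighth place to the sixth (30.8 against an FPKM of 10.2). Its FPKM had been computed over 16209 bases, and its principal transcript has 5348.

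At 4 days after ligation the order was another one. Col3a1 was the highest member in all 3 MI mice, followed in replicates 1 and 3 by Col1a1, Col1a2, Col4a2, Col4a1 and Col6a1. In MI replicate 2 it was followed by Col4a2, Col1a1 and Col4a1. The number of members at an FPKM of at least 10 was 18 in MI replicates 1 and 3 and 8 in MI replicate 2, the same number as for the sham mean. At least 100 FPKM was reached by 7 members in MI replicate 1, by 6 in MI replicate 3 and by 0 in the other mice.

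The comparison of MI with sham-operated mice asks which collagen genes the ischemic heart expresses more or less. Of the 43 members, 19 passed the filter (3 or more mice at 1 FPKM or above) and were tested with limma on log2(FPKM + 1), with p-values adjusted by the Benjamini-Hochberg method over all 11431 genes tested. At an adjusted p under 0.05, 0 of the 19 were higher and 0 lower, against 0.0175% and 0.00875% of all genes tested. At an unadjusted p under 0.05, 12 of the 19 were higher and 0 lower, against 29.5% and 9.85% of all genes, and the adjusted p of each of the 12 was 0.108. The split of all genes depended on scaling, from 3370 higher and 1126 lower as deposited to 2149 higher and 2253 lower after scaling mice by the median log-ratio, whereas 12 members were higher and 0 lower either way. The median log2 fold change of the 19 was 1.60, and 18 of them lay above the median gene, against 50% of all genes tested. In 11 of the 19 all MI mice exceeded all sham-operated mice, against 16.1% of all genes tested, and in 0 of the 19 all MI mice were below, against 9%.

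Without MI replicate 2 the 2 remaining MI mice gave another picture. That mouse was singled out by its likeness to the sham-operated mice. Leaving it out tends to widen the difference and to narrow the MI spread. The p-values of this fit, here and further on, thus rest on 2 mice picked by their expression. Of the 19 tested members, 17 were then higher at an adjusted p under 0.05 and 0 lower, against 56.8% and 14.9% of all genes, and at an unadjusted p under 0.05 18 were higher and 0 lower, against 58.6% and 15.6%. The exceptions at the adjusted threshold were Col4a4 and Col6a6, with log2 fold changes of 0.31 and 0.00.

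**Figure D2:**
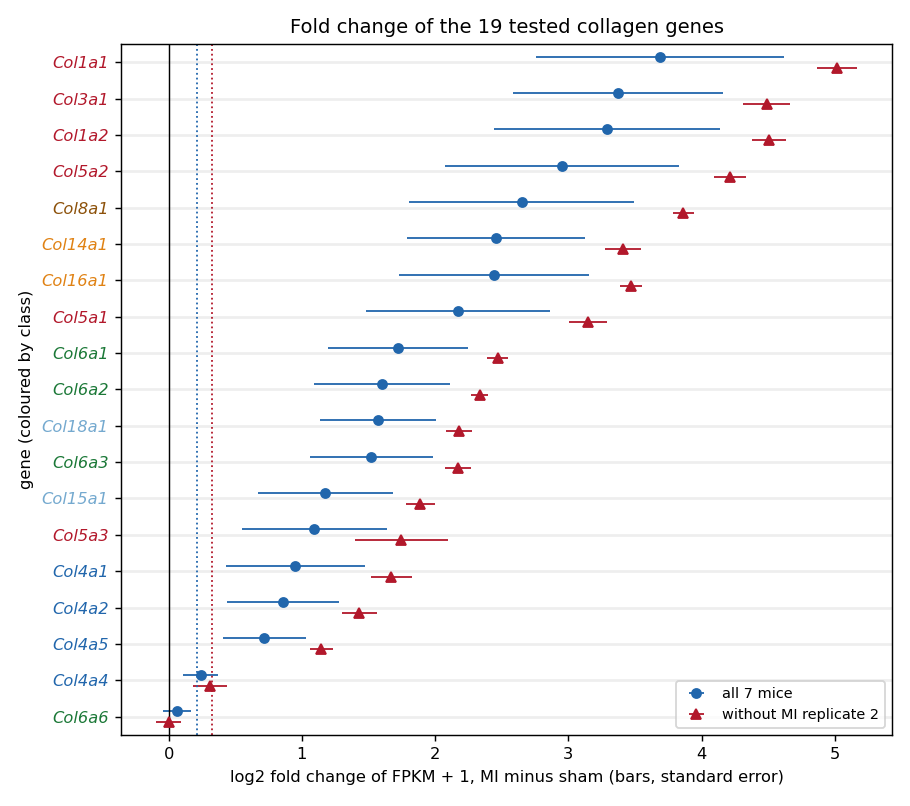
Log2 fold change of FPKM + 1 (horizontal axis, MI minus sham, bars are standard errors) for the 19 tested members, from all 7 mice (circles) and without MI replicate 2 (triangles), with dotted lines at the median gene of each fit. With all 7 mice Col1a1 leads at 3.69 and the 4 type IV genes lie below 1, and leaving out MI replicate 2 moved 18 of the 19 upward.

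Among the fibrillar members, Col1a1, Col3a1, Col1a2 and Col5a2 had the largest log2 fold changes of the 19 tested members. Col1a1, which encodes the α1 chain of type I collagen, had FPKM values of 23.0, 19.5, 18.4 and 17.1 in sham replicates 1 to 4 and of 768, 40.5 and 569 in MI replicates 1 to 3. Its partner chain Col1a2 had 11.6, 9.78, 9.88 and 9.32 in the sham-operated mice and 289, 19.1 and 220 in the MI mice. Col3a1, the chain of type III collagen, had 35.2, 30.9, 29.1 and 24.7 against 830, 67.0 and 575. For all 3 genes the groups did not overlap, and MI replicate 2 stood above the highest sham-operated mouse but far below the other MI mice. The ratio of mean FPKM was 23.5 for Col1a1, 17.3 for Col1a2 and 16.3 for Col3a1, and the log2 fold changes were 3.69 (standard error 0.93), 3.29 (0.85) and 3.37 (0.79).

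Type V collagen is a minor fibril component that starts fibril assembly. Col5a1 had 9.67, 7.80, 7.70 and 7.08 FPKM in the sham-operated mice and 90.6, 9.40 and 68.9 in the MI mice, so MI replicate 2 lay within the sham range. Col5a2 had 5.28, 4.19, 4.39 and 3.83 against 108, 6.31 and 90.7, with no overlap. Col5a3, the third type V chain, had 5.77, 5.17, 3.58 and 2.22 against 21.6, 3.30 and 11.4, and spread most widely among the sham-operated mice. Log2 fold changes were 2.17 (standard error 0.69), 2.95 (0.88) and 1.09 (0.54). Col5a3 missed an unadjusted p of 0.05 in limma, at 0.0819.

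The fibrillar genes of types II, XI, XXIV and XXVII, known mainly from cartilage and bone, did not pass the filter. Col27a1 had 0.322 to 0.355 FPKM in the sham-operated mice and 4.00, 0.457 and 3.20 in the MI mice. Col11a1 rested on 2 to 5 fragments per sham-operated mouse and on 840, 9 and 772 in MI replicates 1 to 3. Col24a1 had 0 to 3 fragments in the sham-operated mice and 562, 12 and 176 in the MI mice. Col11a2 reached 1.08 FPKM in MI replicate 1 and was at most 0.494 in the sham-operated mice. For Col2a1, the main cartilage collagen, 1 fragment was counted in the 4 sham-operated mice together and 67, 1 and 76 in the MI mice. The largest of the 5 untested fibrillar values was therefore the 4.00 FPKM of Col27a1.

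**Figure D3:**
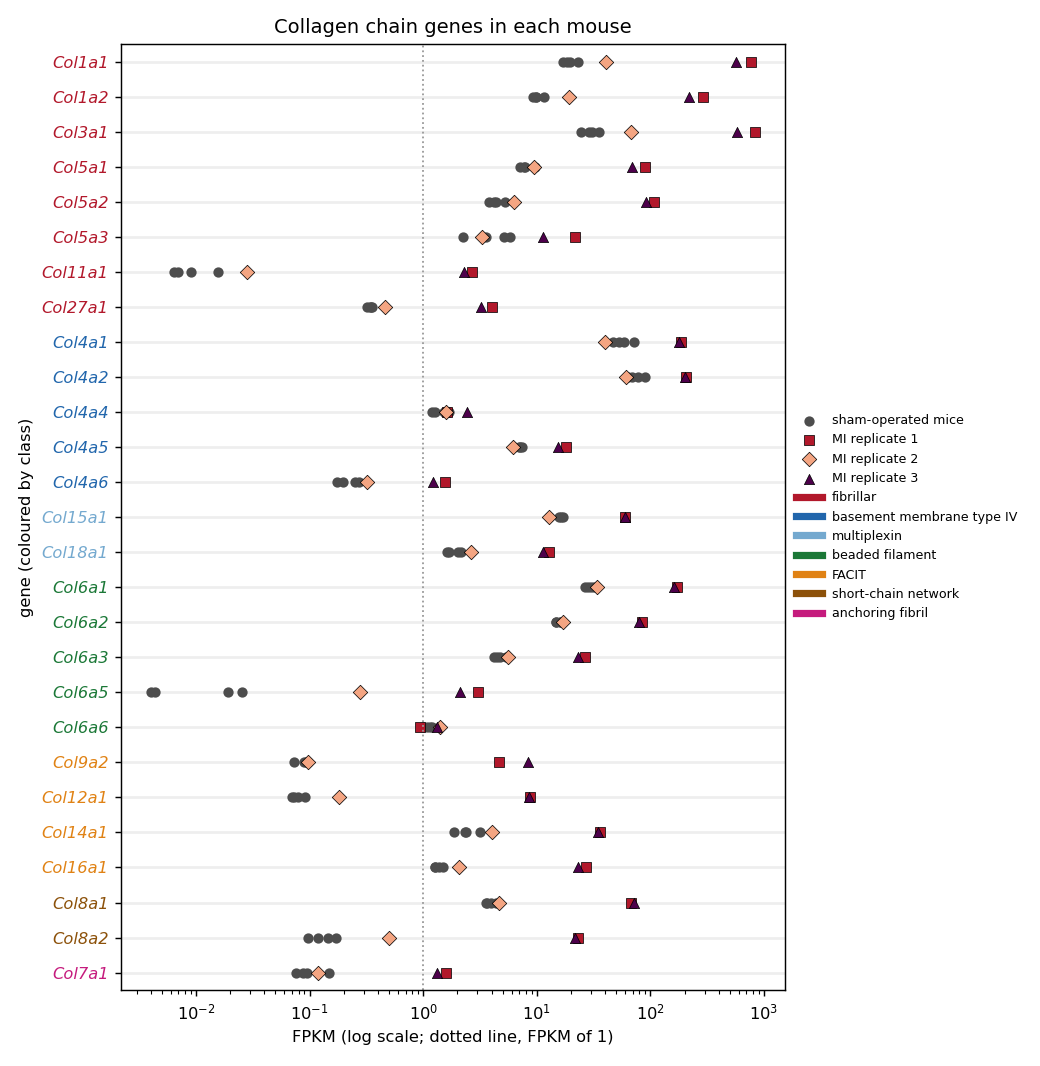
FPKM of each mouse (horizontal axis, log scale) for the 27 members that reached 1 FPKM in 2 mice or more, 1 line a gene, coloured by class, with the 4 sham-operated mice as circles and MI replicates 1, 2 and 3 as squares, diamonds and triangles. MI replicate 2 lies between the sham-operated and the other MI mice for Col1a1, Col1a2, Col3a1, Col5a2, Col14a1 and Col16a1, within the sham range for Col5a1 and Col5a3, and at the low edge of the sham range or below it for Col4a1, Col4a2, Col4a5 and Col15a1.

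The main type IV chains were above the sham-operated mice in MI replicates 1 and 3 and below them in MI replicate 2. Col4a1 had 71.5, 58.2, 52.7 and 47.0 FPKM in the sham-operated mice and 187, 40.0 and 178 in the MI mice, so the lowest value of all 7 mice was that of MI replicate 2. Col4a2 had 90.4, 77.2, 69.2 and 64.1 against 205, 60.8 and 201, and Col4a5 had 7.37, 6.92, 7.16 and 6.35 against 18.0, 6.21 and 15.3. MI replicate 2 was below every sham-operated mouse for all 3 genes. Log2 fold changes were 0.95 (standard error 0.52), 0.86 (0.42) and 0.72 (0.31), and none of the 4 tested type IV genes passed an unadjusted p of 0.05. Col4a4, of the α3α4α5 network known from the kidney filter, had 1.20 to 1.68 FPKM in the sham-operated mice and 1.63, 1.60 and 2.41 in the MI mice. Col4a3 and Col4a6 did not pass the filter and reached at most 1.31 and 1.56 FPKM.

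Col4a1 and Col4a2 lie head to head on chromosome 8, and their first exons share 22 bases in the annotation. These bases are shown because the pair starts from a single short stretch of DNA, whose sequence is read here on the plus strand of GRCm38.p6 from RefSeq at chr8:11312805-11312826.
Col4a1 and Col4a2: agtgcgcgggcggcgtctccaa
The ratio of Col4a2 to Col4a1 was 1.26 to 1.37 in the sham-operated mice and 1.09, 1.52 and 1.12 in the MI mice, a narrow range beside that of either gene. Such a range was not particular to this pair. It was narrower in proportion for Col6a2 to Col6a1, 85161 bases apart, at 0.493 to 0.554 over all mice. The same held for Col6a3 to Col6a1, on chromosomes 1 and 10, at 0.142 to 0.168. The other type IV genes are also paired head to head, Col4a3 with Col4a4 at a distance of 71 bases and Col4a5 with Col4a6 at 1308 bases. In the latter pair the levels were far apart, with Col4a6 at 0.173 to 0.269 FPKM in the sham-operated mice.

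The multiplexins Col15a1 and Col18a1 belong to vascular basement membranes, and the end of the Col18a1 chain is the source of endostatin, an inhibitor of angiogenesis. Col15a1 had 17.2, 16.3, 15.7 and 12.9 FPKM in the sham-operated mice and 59.7, 12.8 and 60.1 in the MI mice, with MI replicate 2 just below the lowest sham-operated mouse. Col18a1 had 2.14, 2.02, 1.62 and 1.68 against 12.7, 2.64 and 11.2, without overlap. The log2 fold changes were 1.18 (standard error 0.51) and 1.57 (0.43), and of the pair only Col18a1 passed the unadjusted threshold in limma, at 0.00775.

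Col6a1, Col6a2 and Col6a3 encode the main chains of type VI filaments. Col6a1 had 31.8, 30.2, 28.0 and 26.8 FPKM in the sham-operated mice and 170, 34.2 and 161 in the MI mice. Col6a2 had 16.2, 16.0, 14.8 and 14.8 against 84.0, 17.1 and 80.2, and Col6a3 had 5.35, 4.76, 4.45 and 4.17 against 26.3, 5.60 and 22.9. In each the groups did not overlap, and MI replicate 2 was at most 1.19 times the sham mean. Log2 fold changes were 1.72 (standard error 0.53), 1.60 (0.51) and 1.52 (0.46). Col6a6, a chain of muscle and skin, had 1.00 to 1.21 FPKM in the sham-operated mice and 0.928, 1.40 and 1.31 in the MI mice, on both sides of the sham range. Its log2 fold change of 0.06 (standard error 0.10) turned negative under 3 other scalings of the mice. Col6a5 had 1 to 6 fragments in each sham-operated mouse and 690, 66 and 524 in MI replicates 1 to 3. Its fragments in MI replicate 2 were thus above those of any sham-operated mouse.

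Among the FACIT members, Col14a1 had 1.87, 2.40, 2.32 and 3.15 FPKM in the sham-operated mice and 35.7, 4.02 and 34.7 in the MI mice. Col16a1 had 1.48, 1.28, 1.36 and 1.27 against 27.3, 2.09 and 23.0. Neither overlapped, and their log2 fold changes were 2.46 (standard error 0.67) and 2.45 (0.71). Col12a1, which links fibrils in tendon and in growing scars, was below the filter because MI replicate 2 and the sham-operated mice were under 1. It had 0.0698 to 0.0907 FPKM in the sham-operated mice (26 to 36 fragments) and 8.77, 0.182 and 8.47 in the MI mice (3377, 73 and 3535 fragments). Col9a2, a cartilage chain, had 6 to 8 fragments in the sham-operated mice and 370, 8 and 724 in the MI mice, so MI replicate 2 was at the sham level. The other FACIT genes stayed under 1 FPKM in all mice, with highest values of 0.857 for Col22a1, 0.821 for Col20a1, 0.285 for Col9a3, 0.0261 for Col9a1 and 0.0234 for Col19a1, each in an MI mouse.

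The short-chain genes encode type VIII collagen of vessel walls and type X of growth cartilage. Col8a1 had 4.34, 3.94, 3.68 and 3.54 FPKM in the sham-operated mice and 68.2, 4.67 and 71.5 in the MI mice, a log2 fold change of 2.65 (standard error 0.84). Col8a2 had 0.172, 0.118, 0.146 and 0.0964 against 22.9, 0.501 and 21.8, with 9 to 18 fragments in each sham-operated animal and 2332, 53 and 2407 in the MI mice. For both genes the groups did not overlap. Col10a1 had 2, 0 and 4 fragments in the MI mice and 0 in the sham-operated mice. The ratio of mean FPKM was 12.4 for Col8a1 and 113 for Col8a2, the latter from a sham level of 0.133 ± 0.0327 FPKM (SD, n = 4).

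The 4 transmembrane members stayed low in all mice. Their highest value was the 0.546 FPKM of Col23a1, followed by 0.383 for Col13a1, 0.0456 for Col25a1 and 0.0313 for Col17a1, and Col25a1 was the only one of the 24 untested members whose highest value was in a sham-operated mouse. Col7a1, the anchoring fibril of skin, reached 1.58 FPKM, and Col28a1 and Col26a1 reached 0.963 and 0.327. Of the 24 untested members, 8 reached an FPKM of 1 in 2 mice, which were MI replicates 1 and 3 each time, 3 reached it in 1 mouse and 13 in none.

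With no filter on low values, when 30504 genes were tested, 26 of the 43 members were higher at an unadjusted p under 0.05, against 20.6% of all genes, and 0 were lower, against 4.77%. At an adjusted p under 0.05, 0 were higher and 0 lower, against 0.0656% and 0.00328%. The groups did not overlap in 23 of the 43, all with the MI mice above, against 12% of all genes in that direction and 4.34% in the other. Some of these separations were slight. MI replicate 2 had 0.0969 FPKM for Col9a2 against at most 0.0961 in the sham-operated mice, and 0.466 against 0.461 for Col23a1. A filter of 1 FPKM in 2 mice, chosen after seeing the data, added 8 members that reached it only in MI replicates 1 and 3, so that their direction was set by the filter. With it 20 of 27 members were higher at an unadjusted p under 0.05 and 0 lower, against 32.4% and 8.73% of 12926 genes, and 0 passed an adjusted p of 0.05 in either direction, against 0%. Without MI replicate 2 and without the filter, 35 of the 43 were higher at an adjusted p under 0.05 and 0 lower, against 36.2% and 5.97% of all genes. In all counts without a filter, 14 untested members were under 0.1 FPKM in every sham-operated mouse, so they had almost no room to be lower. The 35 include Col10a1, with 0 fragments in the sham-operated mice and 2 and 4 in MI replicates 1 and 3.

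MI replicate 2 did not follow a single pattern across the family. Of the 19 tested members, it was above the highest sham-operated mouse for 12 and below the lowest for 4, against 20.4% and 30.2% of all genes tested. The 12 included 4 of 6 fibrillar, 4 of 4 type VI, 2 of 2 FACIT and 1 of 1 short-chain genes and Col18a1, and the 4 were 3 of 4 type IV genes and Col15a1. Relative to the sham mean its FPKM was 2.23 times for Col3a1, 2.08 times for Col1a1 and 1.88 times for Col1a2, and 0.698 times for Col4a1. In MI replicates 1 and 3 the same ratios were 27.7 and 19.1 for Col3a1, 39.3 and 29.2 for Col1a1, and 3.26 and 3.11 for Col4a1.

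The makeup of collagen RNA within a mouse does not depend on how mice are scaled against each other. Summed over the 43 genes, collagen FPKM was 256 to 347 in the sham-operated mice and 3062, 343 and 2454 in MI replicates 1 to 3, and collagen fragments were 0.218% to 0.297% of the library against 2.86%, 0.304% and 2.26%. MI replicate 2 thus lay within the sham range by summed FPKM. Fibrillar genes held 25.4% to 26.4% of the sum in the sham-operated mice and 69.2%, 42.7% and 62.8% in the MI mice. Type IV genes held 46.7% to 49.6% in the sham-operated mice and 13.5%, 31.9% and 16.3% in the MI mice. Neither share overlapped between the groups, and MI replicate 2 lay between the sham-operated mice and the other MI mice in both. Shares are no independent measures, since all sum to the whole.

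**Figure D4:**
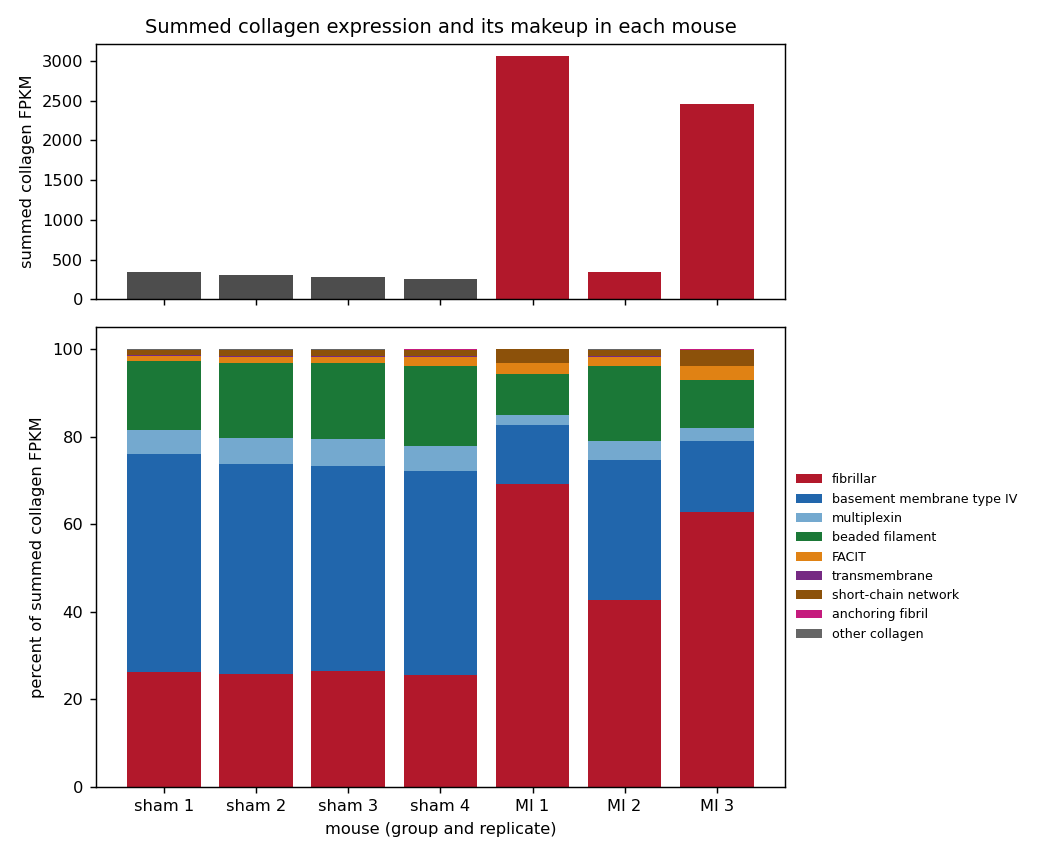
Upper bars show the FPKM summed over the 43 genes in each mouse, and lower bars show the percent of that sum held by each class, 1 bar a mouse. MI replicate 2 has a sum of 343, like the sham-operated mice, but a fibrillar share of 42.7%, above their highest of 26.4%.

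Ratios between chain genes within a mouse were compared for 10 pairs with an exact two-sided permutation test over the 35 splits of 7 mice, in which the smallest possible p is 0.0571, so no pair could pass 0.05. The groups did not overlap in 6 of the 10 pairs, each at that smallest exact p, or 0.0952 after adjustment over the 10 pairs. The ratio of Col1a1 to Col4a1, fibril against basement membrane, was 0.321 to 0.363 in the sham-operated mice and 4.10, 1.01 and 3.19 in the MI mice. The ratio of Col5a1 to Col1a1, type V against type I, was 0.399 to 0.420 against 0.118, 0.232 and 0.121. Within type V the ratio of Col5a2 to Col5a1 was 0.538 to 0.570 against 1.19, 0.671 and 1.32. In these 3 pairs MI replicate 2 stood outside the sham range, on the side of the other MI mice.

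Type I collagen is usually built from 2 α1 chains and 1 α2 chain. The ratio of Col1a2 to Col1a1 was 0.500 to 0.546 in the sham-operated mice and 0.376, 0.470 and 0.387 in the MI mice. Per base of the principal transcripts, the ratio was 1.30 to 1.42 in the sham-operated mice and 0.976, 1.22 and 1.00 in the MI mice, so the level of the ratio rests on the lengths used while the order of the mice does not. The ratio of Col18a1 to Col15a1 was 0.104 to 0.131 against 0.213, 0.207 and 0.187, and here MI replicate 2 was like the other MI mice. The ratio of Col6a2 to Col6a1 was 0.510 to 0.554 against 0.493, 0.501 and 0.497, a difference of 0.10 on the log2 scale. In the other 4 pairs the groups overlapped. Col3a1 to Col1a1 was 1.45 to 1.58 in the sham-operated mice and 1.08, 1.65 and 1.01 in the MI mice (exact p = 0.286).

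**Figure D5:**
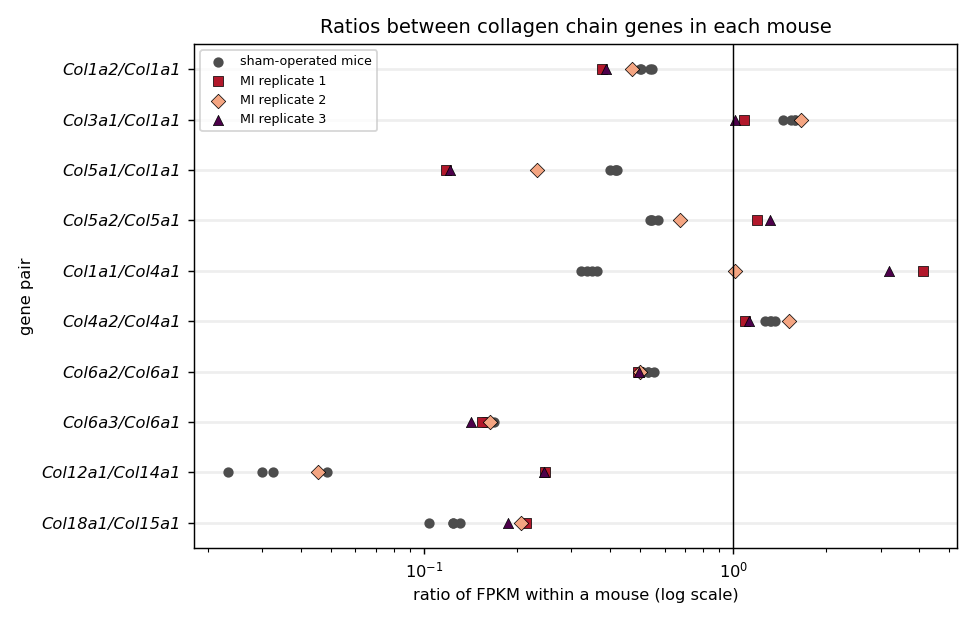
Ratio of FPKM between the genes of each of 10 pairs within a mouse (horizontal axis, log scale), with the 4 sham-operated mice as circles and MI replicates 1, 2 and 3 as squares, diamonds and triangles. For Col1a1/Col4a1 the MI mice lie at 1.01 to 4.10 and the sham-operated mice at 0.321 to 0.363.

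Genes whose products build, trim, break down or bind collagen were counted in 4 lists. Of 18 tested genes for hydroxylation, glycosylation and folding in the endoplasmic reticulum, 12 were higher at an unadjusted p under 0.05 and 0 lower, against the 29.5% and 9.85% of all genes, with a median log2 fold change of 0.90 against 0.21 for the median gene. The same shares of all genes stand beside the other lists. Fkbp14, a folding helper, had 1.09 to 1.38 FPKM in the sham-operated mice and 3.66, 1.44 and 3.18 in the MI mice. P4ha1, a prolyl hydroxylase subunit, had 8.07 to 10.8 against 24.0, 10.3 and 21.8, and Plod3, a lysyl hydroxylase, had 4.26 to 5.16 against 15.7, 5.08 and 14.9. In the latter pair of genes MI replicate 2 was within the sham range.

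Of 9 tested genes for procollagen processing and cross-linking, 9 were higher at an unadjusted p under 0.05, but Lox passed the filter through the MI mice alone, which fixed its direction. Of the other 8, 8 were higher, with a median log2 fold change of 1.87. Lox, the lysyl oxidase that starts cross-links, had 0.381 to 0.586 FPKM in the sham-operated mice and 52.5, 1.94 and 43.1 in the MI mice. Adamts2, which removes the amino-terminal propeptide, had 3.22 to 4.00 against 38.7, 5.32 and 37.5, and the lysyl oxidase relative Loxl3 had 1.02 to 1.48 against 28.1, 1.88 and 27.3. All 3 were higher in every MI mouse than in any sham-operated mouse. Among the listed genes below the filter, Tll2 went the other way, with 0.310 to 0.560 FPKM against 0.0941, 0.305 and 0.0316. Tll1 was higher in every MI mouse, and Adamts3, Adamts14, Mep1a, Mep1b and Loxl4 overlapped.

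Of 4 tested genes for collagen breakdown, 4 were higher at an unadjusted p under 0.05, with a median log2 fold change of 2.11. The gelatinase gene Mmp2 had 13.4 to 17.0 FPKM in the sham-operated mice and 136, 19.1 and 109 in the MI mice. Ctsk, for the collagenolytic protease cathepsin K, had 2.93 to 3.92 against 43.1, 4.70 and 36.6, and Mmp14 had 1.36 to 1.83 against 25.8, 2.16 and 17.5. Below the filter, Mmp8, Mmp9 and Mmp13 overlapped between the groups, Mmp1a was listed at 0 in every mouse, and Fap was higher in every MI mouse. Of 6 tested collagen receptors, 4 were higher, among them Itga11, whose direction was fixed in the same way. Of the other 5, 3 were higher, with a median of 0.62. The integrin chain Itga11 had 0.672 to 0.765 against 9.94, 1.05 and 10.1, Ddr1 had 4.19 to 4.55 against 11.2, 4.61 and 9.80, and Ddr2 had 2.35 to 2.52 against 6.49, 2.57 and 5.93. None of the genes in the 4 lists passed an adjusted p of 0.05 with all mice. Without MI replicate 2, an adjusted p under 0.05 was reached in the higher direction by 16 of 18 hydroxylation and folding genes, 8 of 8 processing genes, 4 of 4 breakdown genes and 4 of 5 receptors that passed the filter (Lox and Itga11 did not), against the 56.8% of all genes given before.

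Markers of the cell types a heart sample holds were counted in the same way. Fibroblast markers other than collagens were higher at an unadjusted p under 0.05 in 9 of 10 (29.5% of all genes) and had a summed FPKM of 141 to 151 in the sham-operated mice and 1047, 192 and 993 in the MI mice. Macrophage markers were higher in 9 of 9, leaving out Fcgr1, which passed the filter through the MI mice alone, and all 10 had sums of 202 to 256 against 1339, 244 and 1149. Cardiomyocyte markers were lower in 6 of 10 (9.85% of all genes), with sums of 14606 to 15886 against 9942, 14653 and 10640, and endothelial markers were higher in 2 of 10, a share below that of all genes, with sums of 176 to 200 against 228, 170 and 246. Smooth muscle and pericyte markers were higher in 2 and lower in 1 of 7 tested, close to the shares of all genes, with sums of 221 to 262 against 352, 224 and 390. Without MI replicate 2, 10 of 10 fibroblast, 9 of 9 macrophage, 7 of 10 endothelial and 4 of 7 smooth muscle and pericyte markers were higher at an adjusted p under 0.05, against 56.8% of all genes. In that fit 9 of 10 cardiomyocyte markers and 1 of 7 smooth muscle and pericyte markers were lower, against 14.9%. Their part in the collagen differences was not tested.

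Markers of tissues that a heart sample could pick up were also counted. Of 6 tested epicardial and mesothelial markers, Upk1b, Krt19 and Krt8 passed the filter through the MI mice alone, and the other 3 were higher at an unadjusted p under 0.05, against 29.5% of all genes. Of these 3, Msln (0.745, 0.556, 1.59 and 1.96 FPKM in the sham-operated mice) and Lrrn4 (0.516, 0.496, 0.757 and 1.19) also needed the MI mice to pass. The filter thus favoured their direction, and only Upk3b passed by the sham-operated mice. The 7 listed markers summed to 4.36 to 10.3 FPKM against 32.2, 22.1 and 46.1. This sum was above the sham range in MI replicate 2 too, although Wt1 alone, at 0.451, was below its own sham range (0.481 to 0.640). Of the 9 cartilage and tendon markers, 2 were tested and 1, Fmod, was higher at the same threshold. Fmod (0.952, 0.606, 1.54 and 1.81 FPKM in the sham-operated mice) likewise needed the MI mice to pass the filter. The 9 markers summed to 2.42 to 3.89 FPKM in the sham-operated mice and to 173, 3.09 and 158 in the MI mice. Of that sum, Comp held 109, 0.932 and 97.3 in the MI mice, while Acan, the main cartilage proteoglycan, was at most 0.673 and Tnmd was listed at 0 in all sham-operated mice and in MI replicate 2. Of 7 epidermal markers only Krt14 was tested, since it passed the filter through the MI mice (1.44, 1.08 and 1.71 FPKM) while listed at 0 in the sham-operated mice, so its direction was fixed. The epidermal sums were 0.495 to 0.691 against 2.26, 1.52 and 2.77, with Krt5, Krt1 and Dsg3 listed at 0 in every mouse. The 2 tested genes of the skeletal muscle list, Acta1 and Ckm, had sham means of 242 and 692 FPKM. At such levels in the uninjured heart they cannot mark skeletal muscle apart from heart. Of the 2, Ckm was lower, against 9.85% of all genes. Among the untested genes, Myh4 was listed at 0 in every mouse, and Myh1, Myh2, Tnni2 and Mylpf overlapped between the groups. Tnnt3 had 0.138 to 0.208 FPKM in the sham-operated mice and 1.88, 0.221 and 2.54 in the MI mice. Without MI replicate 2, at an adjusted p under 0.05, 3 of 3 epicardial and 2 of 2 cartilage markers were higher and 1 of 2 skeletal muscle list genes, Ckm, was lower, against 56.8% and 14.9% of all genes. In that fit Msln, Lrrn4 and Fmod again passed the filter only with the MI mice, which favoured their direction. The part of all these tissues in the values of Col2a1, Col9a2, Col11a1 and Col12a1 was not tested.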

How the data were processed

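Per the labels, myocardial RNA was prepared with standard Illumina protocols, and the submitters' processing notes name CASAVA 1.8, HISAT2, SAMtools 1.3.1, edgeR and mm10. The authors deposited FPKM per gene and mouse, and 0 columns of values were left unused. Strand use and annotation release are not given in the sources used here. Symbols and positions came from GENCODE M21 (GRCm38), in which 91.4% of the identifiers were found. FPKM values moved in whole steps, from which fragments were recovered within a tolerance of 0.05. They gave the depth and the gene length behind each FPKM, which was that of M21 for 1 of the 43 members. Fragment numbers below about 10 leave a ratio imprecise, and counting error only is covered by them.

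A pseudocount of 1 was added before the log2. The 11431 genes that reached 1 FPKM in 3 or more of the 7 mice were tested with limma 3.58.1 (lmFit, eBayes with trend) in R 4.3.3, without covariates, and adjusted by the Benjamini-Hochberg method over all of them. A fold change on this scale understates the change of low genes. Ratios were tested by exact permutation (SciPy 1.17.1). The scripts were checked on simulated data first. Python 3.11.15, pandas 2.3.3, NumPy 2.4.6 and matplotlib 3.10.9 were used for the rest. Principal transcripts are those tagged by APPRIS in M21.

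The members, classes, pathway and marker lists, ratios and tests were chosen with earlier results of these data known. Values in every mouse are given for members with a mean FPKM over the 7 mice of at least 5 and for tested members with an absolute log2 fold change of at least 1, other members are given by range, count or fragments, and from each pathway list the 3 genes with the smallest p are named. Of the alternatives, 2 were chosen after seeing the data: a filter of 1 FPKM in 2 mice and ratios per base of the principal transcript. Some members share exon bases with another gene in M21, among them Col3a1 (141 with Gm47302), Col5a1 (212) and Col4a3 (563), and their reads could not be told apart there.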

Additional observations from a re-analysis of the deposited data

Results flagged for a closer look

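In 2 of 60 sets of 4 sham-operated mice (41 members, 10 ratios and 9 class shares), 1 mouse lay apart from the other 3 by more than Dixon's 95% critical share of the range, where chance alone gives about 3 of 60. Col2a1 was listed at 0 in 3 sham-operated mice and at 0.00469 FPKM, from 1 fragment, in sham replicate 4. Col19a1, a FACIT chain, was listed at 0 in 3 sham-operated mice and at 0.0171 FPKM, from 3 fragments, in sham replicate 1. In both the gap was the whole range, 1.00 as a share.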

How the results depend on the processing

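The direction of 18 of the 19 tested members held in all 19 settings tried, and 109 of 110 alternative values of the 10 ratios kept their direction, while their p could not pass 0.05 in any setting. The log2 fold change of Col6a6 became -0.0493 with quantile normalization, -0.0704 with scaling by the median log-ratio and -0.0073 with mitochondrial genes left out. The log2 ratio of Col12a1 to Col14a1 became -0.31 with a pseudocount of 1. That is large beside the Col12a1 values of the sham-operated mice (0.0698 to 0.0907 FPKM) and MI replicate 2 (0.182), but not beside those of MI replicates 1 and 3. Members higher at an adjusted p under 0.05 were 19 with sample weights (437 for MI replicate 3, under 0.1 for each other MI mouse), against 66.8% of all genes, and 0 to 17 with 1 mouse left out (17 without MI replicate 2, 0 otherwise). At an unadjusted p under 0.05 they were 26 without the filter, 20 with a filter of 1 FPKM in 2 mice (chosen after seeing the data, with 8 added members whose direction the filter set), 19 with sample weights (67.1% of all genes), and 9 to 18 with 1 mouse left out (9 without MI replicate 1, against 8.65% of all genes, and 9 without MI replicate 3, against 7.73%). Members with every MI mouse above every sham-operated mouse were 23 without the filter, against 12% of all genes. They were 18 with the filter in 2 mice and 11 to 17 with 1 mouse left out (17 without MI replicate 2). For the 18 and the 11 to 17 the share of all genes was not counted, so they have no such comparison. Leaving out a mouse makes such a separation easier for any gene, and the filter in 2 mice set the direction of its 8 added members. Replicate numbers do not pair the mice: deviations of same-numbered mice correlated at 0.07, -0.02 and -0.08, and with the replicate number as a block 0 members passed an adjusted p of 0.05 and 12 were higher at an unadjusted p under 0.05, against 15.5% of all genes. With 1 mouse left out, the fibrillar share differed by 26.8 to 40.0 points and the type IV share by -32.9 to -23.7, and no ratio changed direction. Depth limits the members with fewer than 10 fragments in each sham-operated mouse, such as Col2a1, Col11a1 and Col24a1. Median log2 fold changes of the pathway lists, leaving out Lox and Itga11, stayed above 0: with 1 mouse left out they were 0.66 to 1.31 for hydroxylation and folding, 1.40 to 2.75 for processing, 1.55 to 3.01 for breakdown and 0.46 to 0.92 for receptors, the highest each time without MI replicate 2, and with median log-ratio scaling that of the receptors was 0.35.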
